A study of Mus musculus with 211 samples.

Results

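Cells were divided by whether they carried transcripts of the cell division machinery, and the 48 cycling cells were set against the 81 non-cycling cells among 164 cells with at least 50000 reads on genes, out of 211 adult cells in all. The classes were chosen by read counts of 5 genes in each cell. A cell counted as cycling when it had 10 or more reads in at least 2 of Mki67, Top2a, Cdk1, Ccna2 and Tpx2. A non-cycling cell had 0 reads in at least 4 of the 5 genes and under 10 in the other. The remaining 35 cells met neither condition, and 47 cells fell under the read minimum.

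The cells came from the cochleae of CD1 Lfng-EGFP mice at P60 and P120, of either sex according to the study's methods. The labels name no treatment, and every group carried the same BAC transgene, in which regulatory sequence of Lfng drives EGFP. Cells were sorted by FACS for GFP, excluding dead cells, and captured on the Fluidigm C1, where the methods give 4 mice per experiment, so no cell could be traced to 1 animal. The P60 cells comprised 24 cycling, 41 non-cycling and 15 cells of neither class, and the P120 cells comprised 24, 40 and 20. Comparisons were made over the 6 captures that held at least 2 cells of both classes, which were captures 28, 32 and 38 at P120 and captures 31, 40 and 9c at P60. These held 46 cycling and 57 non-cycling cells, with 3 to 14 cells of a class per capture. Read counts summed over the cells of a class ranged from 7005912 to 20373941 per capture for cycling cells and from 2003897 to 21192889 for non-cycling cells. Values are given below as CPM, the reads of a gene scaled to the same total of reads on genes in every capture and class (counts per 1000000). A CPM is not scaled by gene length, so it compares the same gene between classes and does not rank genes against each other.

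The 5 genes mark the DNA replication and mitosis phases of the cell cycle, in which a cell copies its genome and divides. In the blood lineage, neutrophils arise from dividing precursors in the bone marrow. Promyelocytes make the proteins of the primary granules, myelocytes make those of the specific granules, and later cells stop dividing, fill the gelatinase granules and acquire the receptors and cytokines of the mature neutrophil. Supporting cells (SCs) of the adult mammalian cochlea are known as cells that do not divide.

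The labelled cell type, SCs of the adult cochlea, was checked first, because it bears on every value that follows. A cell was called positive for a list of marker genes when it had 10 or more reads in at least 2 of them. Leukocyte markers were positive in 48 of 48 cycling cells and in 78 of 81 non-cycling cells, with 0.594% to 0.684% and 0.894% to 2.45% of reads over the captures. S100a8, a calcium-binding protein of neutrophils, had 10 or more reads in 48 of 48 and in 80 of 81 cells. Markers of SCs were positive in 12 of 48 cycling cells (25%, exact 95% interval 13.6 to 39.6) and in 18 of 81 non-cycling cells (22.2%, 13.7 to 32.8). Their summed share of reads lay between 0.00203% and 0.0165% in the cycling captures and between 0.00499% and 0.433% in the non-cycling captures, and it was lower in the cycling cells of 6 of 6 captures. By capture, SC markers were positive in 5 of 8 cycling cells of 9c and 0 of 3 of 31. Among non-cycling cells they were positive in 5 of 5 of 21c and 0 of 3 of 40. Of the 18 SC markers, 15 had a read in cycling cells and 16 in non-cycling cells. Prox1, Fgfr3 and Hes5 were at 0 reads in the cycling cells and Hes5 and Epyc in the non-cycling cells. No cell of either class reached 10 reads of Sox2 (exact upper limits 7.4% of cycling and 4.45% of non-cycling cells). Lfng itself reached 10 reads in 25 of 48 cycling and 43 of 81 non-cycling cells. The data thus went against the label in most cells of both classes, and the cells are named here by the class rule alone.

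The classes also differed in ways that are not gene-specific. Pooled over all captures, the median cycling cell had 1757950 reads on genes and the median non-cycling cell 733957. Over the 6 captures the median was higher in cycling cells of 5 and lower in capture 40. That difference was not past the threshold (exact sign-flip permutation test over captures, two-sided, p = 0.125, adjusted 0.146). Because the rule counts reads, this difference is not independent of it. With every cell thinned at random to 50000 reads, the median number of genes with a read in a capture was 1600 at the lowest, 2443 in the middle and 3207 at the highest for cycling cells, and 564, 905 and 1160 for non-cycling cells. The classes did not overlap, and the mean difference was 1571 genes, higher in 6 of 6 captures (exact sign-flip permutation test over captures, two-sided, p = 0.03125, the smallest that 6 captures allow, and 0.0729 adjusted over 7 such tests). Sequencing run moved with class as well. In captures 31, 32 and 38 every cycling cell came from run S059iso1, in captures 28 and 32 every non-cycling cell came from run S059iso2, and in capture 9c all cells shared run S047. Run and class therefore cannot be told apart in capture 32, and the part of the run in the other differences was tested only in the 8 combinations of capture and run that held both classes.

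As a description of the rule, Mki67 had 10 or more reads in 45 of 48 cycling cells, Top2a in 44, Tpx2 in 32, Cdk1 in 29 and Ccna2 in 24, and each was at or under 1.57 CPM in the non-cycling cells of every capture. At the edge of the rule, 10 cycling cells had exactly 2 of the 5 genes, while 15 cells of neither class had 1. Among cells inside the rule, 14 had all 5 genes. The G2/M genes outside the rule took a median of 1.07% of the reads of a cycling cell and the S phase genes 0.496%, and 9 of 48 cycling cells had more reads of S phase than of G2/M genes.

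Across the transcriptome, 444 of 5014 genes tested (8.86%) differed between the classes, with 350 (6.98%) higher in cycling cells and 94 (1.87%) higher in non-cycling cells (edgeR's quasi-likelihood test on summed counts with the capture as a block, adjusted p under 0.05). The scale of these changes matters, because the median log2 fold change over all tested genes was 1.96 toward cycling cells. It was 2.06 with size factors of DESeq2 and 2.71 with total reads, where 613 genes were higher and 75 lower. With cells thinned to 50000 reads the median was 1.11, and with classes set on thinned cells it was 0.877. Without the capture as a block it was -0.00663, so the size of this shift depends on the setting. When the test was centred on the median of 1.96, 413 genes (8.24%) were called. Of these, 156 (3.11%) were higher and 257 (5.13%) were lower in cycling cells, and they included 156 of the 350 and all 94 of the 94. With cells thinned to 50000 reads, 223 of 2282 genes (9.77%) were called, with 155 (6.79%) higher and 68 (2.98%) lower. By sign alone, 20.5% of all genes tested were higher in cycling cells and 2.83% in non-cycling cells of all 6 captures, and the captures of the classes did not overlap for 8.70% and 0.997%. Of the cell cycle lists, 13 of 28 S phase, 32 of 43 G2/M and 61 of 128 other members tested were higher in cycling cells and none was lower. These genes follow from the rule, and the genes described from here on lie outside them. Without capture 28, 31, 32 or 9c the number of genes called was 223, 294, 208 and 286. Without the cells that carried basophil or mast cell markers it was 75, with 31 higher and 44 lower in cycling cells.

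With a block of capture and run, 0 of 2874 genes were called by edgeR, although 441 had an unadjusted p under 0.05. Of the genes called without the run in the block, 52 of the 350 higher in cycling cells and 69 of the 94 higher in non-cycling cells could be tested there. Those genes were chosen by the fit without the run on largely the same cells, so their directions in this fit are no independent support.

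Genes of the primary granules were higher in cycling cells. Of 15 members, all tested, 9 (60%) were called higher and 0 lower, against 6.98% of all genes tested that were higher. The median log2 fold change was 7.78 against 1.96 over all genes tested. The 9 were Mpo, Elane, Prtn3, Ctsg, Ms4a3, Fcnb, Nkg7, Cst7 and Prss57. Centred on the median of all genes, Mpo and Elane remained higher, and Srgn and Hdc, which mature granulocytes also express, were lower. Without cells carrying basophil or mast cell markers 3 of the 15 were higher, namely Mpo, Elane and Fcnb. With classes set on thinned cells the same 3 were higher and 1, Hdc, was lower.

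Mpo encodes myeloperoxidase, which makes hypochlorous acid in the neutrophil. It lies on chromosome 11 at 87793581 to 87804413 in GRCm38. In cycling cells it had 513 CPM in the lowest capture, 5217 in the median and 8310 in the highest, and in non-cycling cells 0.784, 2.58 and 2773. The classes overlapped only through the non-cycling cells of capture 40, where 1 of 3 cells was positive for primary granule genes. The log2 fold change was 8.99 ± 1.32 (SE), or 7.03 above the median of all genes (adjusted p = 1.14e-06, higher in 6 of 6 captures). Within capture and run it was 7.33, with an adjusted p of 0.167. Mpo was higher in cycling cells in 6 of those 8 combinations and lower in 2. In capture 40 and run S059iso1, 10 cycling cells had 5945 CPM and 1 non-cycling cell had 20934 CPM.

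Elane encodes neutrophil elastase, a serine protease of the same granule, on chromosome 10 at 79886247 to 79888215. Its levels were 16.4, 6707 and 10861 CPM in cycling cells and 0.367, 3.70 and 2472 CPM in non-cycling cells. Again the high non-cycling value came from capture 40, while the low cycling value came from capture 32. The log2 fold change was 8.70 ± 1.31 (SE, adjusted p = 2.25e-06). Within capture and run it was 8.28, with an adjusted p of 0.142, higher in cycling cells in 6 of 8 combinations and lower in 2. Ms4a3, a membrane protein of granulocyte precursors, did not overlap between the classes, with 384 to 2072 CPM in cycling cells and 0.348 to 146 CPM in non-cycling cells (log2 fold change 6.56 ± 1.72, SE). Ctsg, which encodes cathepsin G, had 82 to 928 CPM in cycling cells and 0.0871 to 251 CPM in non-cycling cells (8.41 ± 2.13, SE). Mpo, Elane, Ms4a3 and Ctsg stayed past the threshold without each capture in turn. Prtn3 lost it without captures 28, 31 or 9c, Fcnb without 38 and Nkg7 without 28, and Cst7 and Prss57 lost it without any of 5 captures.

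The promoters of 3 of these genes and of Retnlg, the gene with the smallest p among those higher in non-cycling cells, are printed. Mpo has the smallest p in the other direction, and Elane and Ctsg come from the primary granule list. Each run holds 250 bases before and 50 after the start given by RefSeq in GRCm38.p6, written along the gene. The gene positions printed in the text for Mpo, Elane and Retnlg come from GENCODE and do not begin at the RefSeq start. For Mpo and Elane they begin before it, so part of the bases before the RefSeq start lies inside the gene as placed by GENCODE. Capitals mark exact matches, on either strand, to GAGGAAGT, a core bound by PU.1 in myeloid cells, to CCAAT, and to TTTGAA, the core of the cell cycle homology region found in G2/M gene promoters. On the other strand these read ACTTCCTC, ATTGG and TTCAAA.
Mpo (chr11:87793534-87793833, + strand): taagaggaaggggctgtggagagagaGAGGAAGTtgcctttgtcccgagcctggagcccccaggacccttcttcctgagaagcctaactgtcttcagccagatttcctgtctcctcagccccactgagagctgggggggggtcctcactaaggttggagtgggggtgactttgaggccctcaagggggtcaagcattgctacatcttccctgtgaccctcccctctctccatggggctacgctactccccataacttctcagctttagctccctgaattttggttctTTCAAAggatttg
Elane (chr10:79886062-79886361, + strand): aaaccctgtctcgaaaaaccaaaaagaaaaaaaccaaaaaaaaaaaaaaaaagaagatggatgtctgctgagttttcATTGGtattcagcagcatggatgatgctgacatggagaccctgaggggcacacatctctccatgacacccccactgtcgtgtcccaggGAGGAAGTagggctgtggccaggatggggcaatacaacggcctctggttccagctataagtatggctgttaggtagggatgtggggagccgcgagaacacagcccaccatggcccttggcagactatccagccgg
Ctsg (chr14:56102525-56102824, - strand): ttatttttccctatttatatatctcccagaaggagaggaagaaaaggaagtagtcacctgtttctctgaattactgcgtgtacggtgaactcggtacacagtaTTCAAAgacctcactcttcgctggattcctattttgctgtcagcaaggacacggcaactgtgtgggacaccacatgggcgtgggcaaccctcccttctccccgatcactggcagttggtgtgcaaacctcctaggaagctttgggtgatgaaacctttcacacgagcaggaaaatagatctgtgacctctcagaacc
Retnlg (chr16:48872358-48872657, + strand): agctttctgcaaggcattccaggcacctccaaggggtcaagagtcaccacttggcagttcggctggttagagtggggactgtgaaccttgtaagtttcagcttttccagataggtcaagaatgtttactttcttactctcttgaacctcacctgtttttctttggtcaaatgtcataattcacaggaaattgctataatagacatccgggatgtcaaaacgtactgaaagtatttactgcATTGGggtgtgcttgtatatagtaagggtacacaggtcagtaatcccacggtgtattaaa

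GAGGAAGT stood 224 bases before the RefSeq start of Mpo and 85 before that of Elane. It was in 4 of 12 primary granule promoters found in the table, against 3.69% of 27025 promoters of the same length. Among 3810 promoters of tested genes the share was 4.72%. Also searched were CACGTG (E box), TTCCCGCC (E2F) and TTGCGCAA (C/EBP), each found in 0 of the 12. They were in 8.09%, 2.52% and 0.207% of the 27025. TTTGAA was in 4 of those 12, in 20.2% of all promoters, in 14.9% of those of tested genes and in 45 of 87 promoters (51.7%) of called cell cycle genes. CCAAT was in 5 of the 12, in 41.1% of all promoters and in 61 of the 87. Of 69 promoters of genes higher in non-cycling cells, 11 held TTTGAA and 25 held CCAAT. A match is a stretch of letters and was not tested for binding.

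Specific granule genes were split. Of 20 members tested, Chil3, Camp and Ngp (15%) were called higher in cycling cells and Mmp8 (5%) lower. Over all genes tested these shares were 6.98% and 1.87%. The median log2 fold change was 0.47, under the median of all genes. Chil3, a chitinase-like secreted protein, had 5270, 14662 and 26559 CPM as the lowest, median and highest of the cycling captures and 5.99, 61.7 and 8969 CPM in non-cycling cells. Cycling cells were higher in 6 of 6 captures, with overlap through capture 31, where non-cycling cells held 8969 CPM (log2 fold change 6.56 ± 1.10, SE, adjusted p = 2.85e-05). Ngp, neutrophilic granule protein, was high in both classes, at 17404 to 124966 CPM in cycling and 146 to 48060 in non-cycling cells, and was higher in cycling cells of 5 of 6 captures (2.40 ± 0.54, SE). Camp, the cathelicidin precursor, behaved like Ngp but was not past the threshold without capture 32 or 9c. Centred on the median of all genes, neither Ngp nor Camp was called. With classes set on thinned cells, 0 of 19 tested members were higher in cycling cells and 2, Mmp8 and Lyz2, were lower. Chil3, Camp and Ngp then had log2 fold changes of 2.89, 0.71 and 0.58 (edgeR, adjusted p = 0.0770, 0.591 and 0.631).

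Mmp8, neutrophil collagenase, moved the other way. It had 0.593, 99.1 and 539 CPM in the lowest, median and highest cycling captures, against 108.7, 2724 and 8877 CPM in non-cycling cells. The ranges overlapped, although non-cycling cells were higher in 6 of 6 captures. The log2 fold change was -5.72 ± 0.91 (SE, adjusted p = 9.58e-06). Ltf, Lcn2 and Lyz2, encoding lactoferrin, lipocalin 2 and lysozyme, were not called, with log2 fold changes of 2.47 ± 1.11, 0.15 ± 0.71 and -0.78 ± 0.52 (SE).

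**Figure D1:**
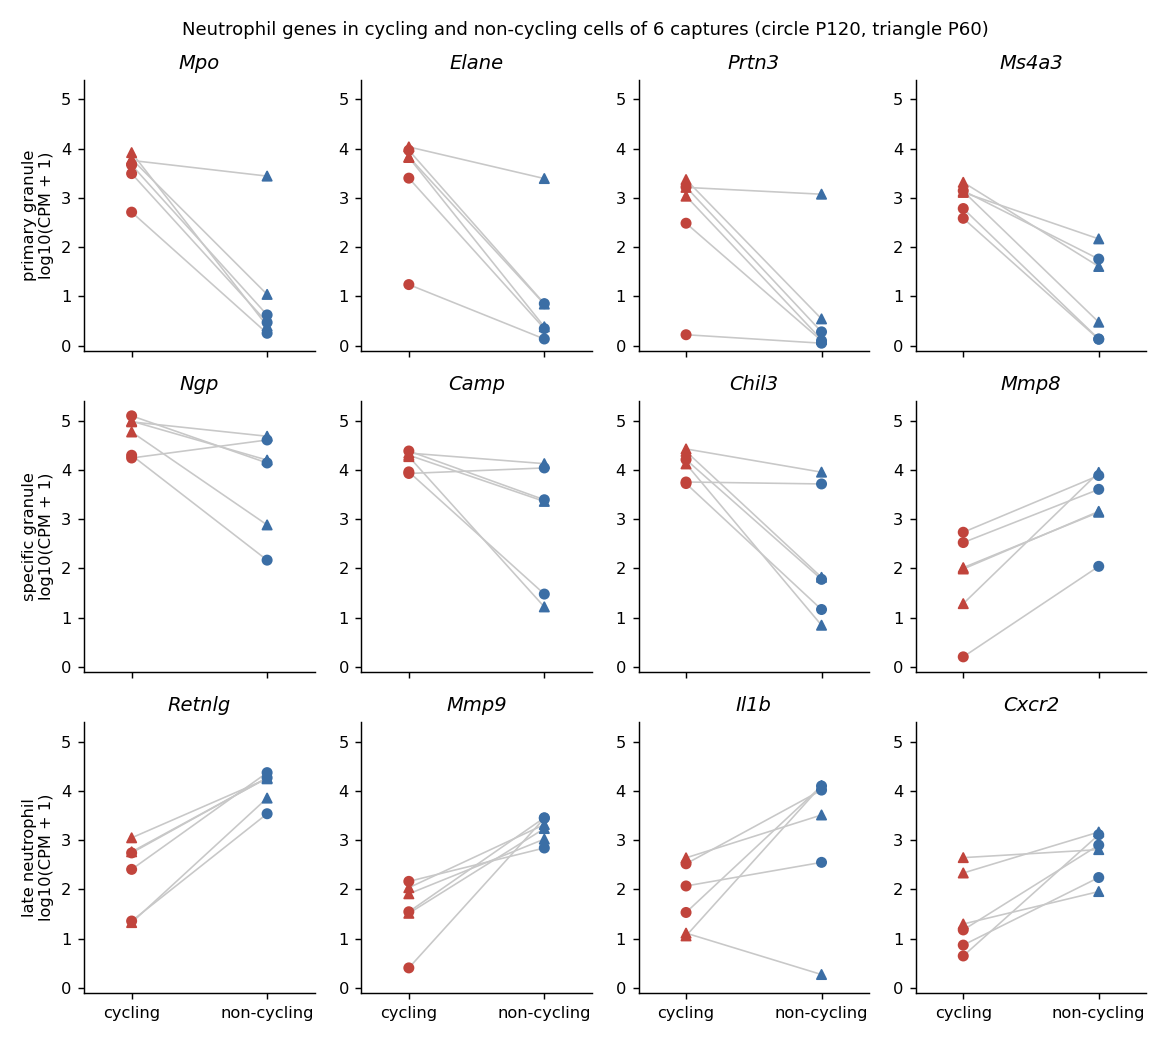
Levels of 12 neutrophil genes in the 6 captures, as log10(CPM + 1); red points are cycling cells, blue points non-cycling cells of the same capture, and a line joins them. Primary granule genes (upper row) sit higher in cycling cells of every capture, with high values also in the non-cycling cells of capture 40 and low values of Elane and Prtn3 in the cycling cells of capture 32, and Mmp8 and the late genes sit lower in cycling cells, with 1 exception for Il1b.

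Late neutrophil genes were higher in non-cycling cells. Of 51 members 42 were tested, and 20 (47.6%) were called higher in non-cycling cells and 0 in cycling cells. Over all genes tested, 1.87% were called higher in non-cycling cells. The median log2 fold change of the list was -4.28. With classes set on thinned cells 24 of 42 were lower in cycling cells. All 42 lay under the median of all genes tested. Without the cells of basophil or mast cell markers, 14 of 41 stayed called. The list took 3.11% to 11.01% of reads in the cycling captures and 11.1% to 18.7% in the non-cycling captures, which did not overlap.

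Retnlg, a resistin-like secreted protein of mature neutrophils, lies on chromosome 16 at 48872621 to 48874496. It had 20.3, 404 and 1119 CPM in the lowest, median and highest cycling captures, and 3453, 18004 and 23600 CPM in non-cycling cells. The classes did not overlap, and the log2 fold change was -6.82 ± 0.66 (SE, adjusted p = 9.75e-14). The difference was -6.25 without basophil-marker cells and -6.39 within capture and run, where the adjusted p was 0.124. Mmp9, which encodes gelatinase B, had 1.56 to 145 CPM against 695 to 2861 (-5.95 ± 1.19, SE), with no overlap.

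Il1r2, the decoy receptor for interleukin-1, had 2.74 to 152 CPM in cycling cells and 172 to 5706 in non-cycling cells, also with no overlap. Its ligand Il1b had a median of 75 CPM against 6845, but in capture 40 the level was lower in non-cycling cells, where it was 0.875 CPM (-4.85 ± 1.07, SE, adjusted p = 0.00288). Among receptors, Cxcr2 and Csf3r, for chemokines and for G-CSF, had medians of 16.5 and 271 CPM in cycling cells against 721 and 1971 CPM. Cxcr2 lost its call without capture 28, 32, 38 or 9c, and Csf3r did not lose it without any single capture. S100a9, the partner of S100a8, was called with a small change of -1.23 ± 0.28 (SE) and levels of at least 14948 CPM in every capture of both classes.

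The receptor list had 6 of 24 tested members (25%) higher in non-cycling cells and 0 in cycling cells (median log2 fold change -2.20). The inflammatory list had 8 of 33 (24.2%) and 0 (median -2.51), against 1.87% of all genes tested that were higher in non-cycling cells. The late list shares 5 genes with each of these. Members outside it included C5ar1, the receptor of complement C5a, with 76.5 to 392 CPM against 911 to 2883, and Ptafr, the receptor for platelet-activating factor. Cxcl2, a chemokine for neutrophils, had a median of 32.2 CPM in cycling and 1808 CPM in non-cycling cells. Dusp1 and Zfp36, which limit kinase signalling and the stability of cytokine mRNAs, had medians of 359 and 424 CPM against 3387 and 2212. Neither overlapped between the classes.

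Single cells showed how these programmes combined. Primary granule genes (Mpo, Elane, Prtn3, Ctsg) were positive in 31 of 48 cycling cells (64.6%, exact 95% interval 49.5 to 77.8) and in 3 of 81 non-cycling cells (3.70%, 0.770 to 10.4). Over captures the share was 25% at the lowest, 65.2% in the middle and 83.3% at the highest in cycling cells, and 0%, 4.55% and 33.3% in non-cycling cells. It was higher in cycling cells of 6 of 6 captures, by a mean of 52.5 percentage points (exact permutation p = 0.03125, adjusted 0.0729). The highest share, 83.3%, was in capture 32, where 5 of 6 cycling cells were positive for basophil or mast cell markers. The cycling cells of that capture had 3118 CPM of Mpo and 928 of Ctsg, but 16.4 of Elane and 0.668 of Prtn3. Late genes (Il1b, Cxcr2, Csf3r, Mmp9) were positive in 19 of 48 cycling and 75 of 81 non-cycling cells, a mean difference of -48.0 points over captures, with the same exact p. Specific granule genes (Ltf, Camp, Ngp, Chil3) were positive in 45 of 48 and 43 of 81 cells. Their difference of 32.9 points was not past the threshold (exact permutation p = 0.125), and in captures 31 and 40 all cells of both classes were positive.

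The programmes were not exclusive among cycling cells. Of the 48, 10 were positive for both primary and late genes, 21 for primary alone, 9 for late alone and 8 for neither. In the non-cycling class the counts were 2, 1, 73 and 5 of 81. All 17 cycling cells without primary granule genes were positive for specific granule genes. Thinned to 50000 reads, with 1 read in at least 2 genes as the criterion, the primary share was 54.2% of cycling and 12.3% of non-cycling cells and the late share was 43.8% and 97.5%. Within combinations of capture and run, some with 1 cell of a class, the primary share was higher in cycling cells in 5 of 8 and lower in 1. The late share was lower in 5 and higher in 1.

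**Figure D2:**
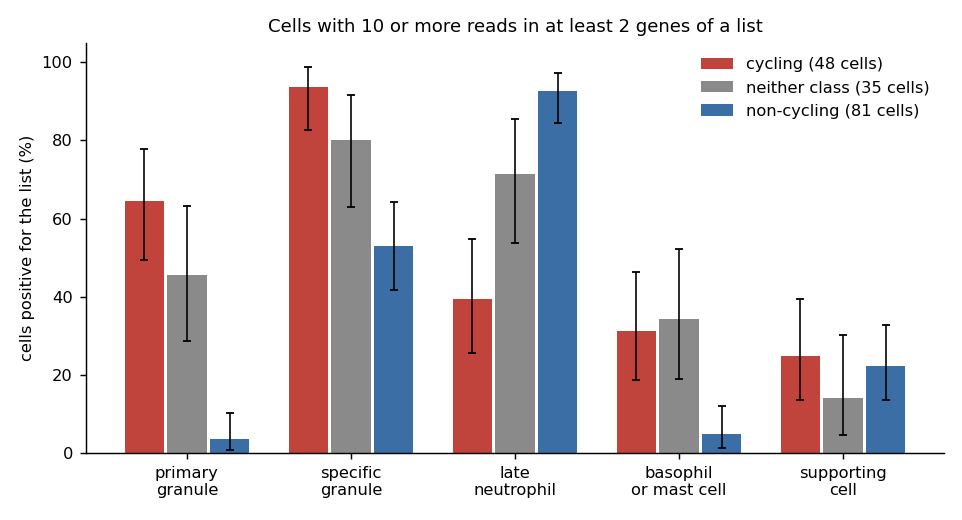
Percent of cells with 10 or more reads in at least 2 genes of 5 marker sets, in cycling, unclassed and non-cycling cells, with exact 95% binomial intervals that cover counting error only. Primary granule genes mark 64.6% of cycling and 3.70% of non-cycling cells, late genes 39.6% and 92.6%, and the bars for SC markers overlap.

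Cells with 1 rule gene or with few reads of it fell between. Of the 35 cells of neither class, 16 were positive for primary granule genes, 28 for specific granule genes and 25 for late genes. By the number of rule genes at 10 or more reads, primary granule genes were positive in 6 of 10 cycling cells with 2, 6 of 12 with 3, 7 of 12 with 4 and 12 of 14 with 5. Of cells of neither class with 1 such gene, 9 of 15 were positive. These counts lie at the threshold of the rule and carry no test.

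**Figure D3:**
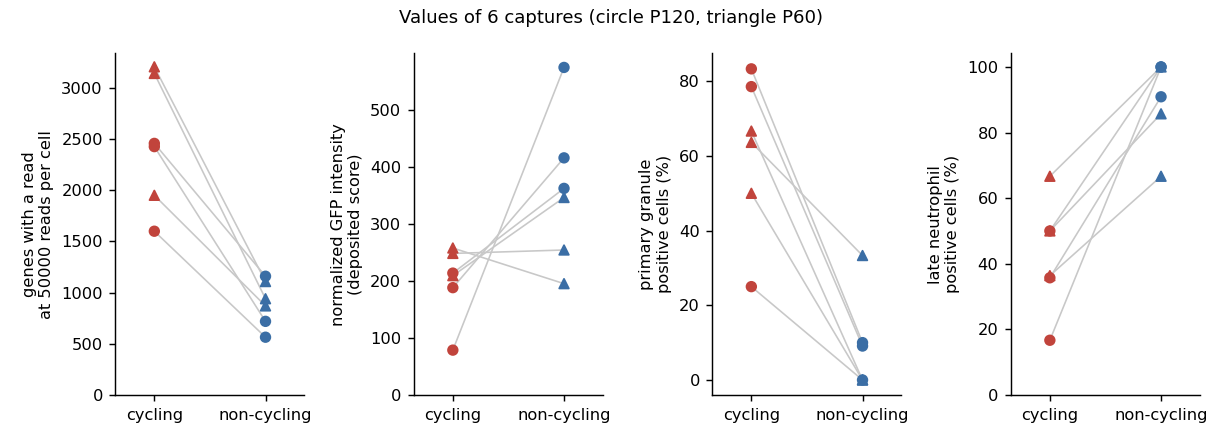
Capture values of cycling (red) and non-cycling (blue) cells: median genes with a read at 50000 reads per cell, median normalized GFP intensity, and the percent of cells positive for primary granule or late neutrophil genes. From cycling to non-cycling, every line falls for genes detected and for primary granule genes and rises for late genes, while GFP rises in 5 of 6 captures.

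The normalized GFP intensity, a score from images of the captured cells, plays no part in the rule. Capture medians were 78.5, 211 and 258 at the lowest, middle and highest in cycling cells and 195, 354 and 574 in non-cycling cells. Cycling cells were dimmer in 5 of 6 captures, by a mean of 159, which was not past the threshold (exact permutation p = 0.0938, adjusted 0.146). The exception was capture 9c. Within combinations of capture and run, some with 1 cell of a class, cycling cells were dimmer in 4 of 8 and brighter in 4.

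Transcription factors of granulocyte development gave few calls. Of 24 members tested, Rara and Fosl2 (8.33%, against 1.87% of all genes tested) were higher in non-cycling cells and none in cycling cells. Rara, the retinoic acid receptor alpha, had at most 1.93 CPM in cycling cells and 13 to 591 in non-cycling cells (log2 fold change -8.84 ± 2.53, SE), and it lost the call without capture 31 or 32. Myb, a factor of proliferating blood precursors, did not overlap between the classes, with 69.8 to 427 CPM against 0 to 36.3, but its adjusted p was 0.101. Gfi1, a repressor needed for neutrophil development, was higher in cycling cells of 6 of 6 captures with an adjusted p of 0.0888. Cebpe, which acts at the myelocyte stage, had a median of 67.7 CPM in cycling and 3.74 in non-cycling cells (adjusted p = 0.197). Spi1, which encodes PU.1, had medians of 32.2 and 52 CPM (adjusted p = 0.638).

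A mixed list of CDK inhibitors, D and other cyclins, pocket proteins, p53 with its regulators and antiproliferative genes had 24 tested members, of which 2 were higher in non-cycling cells and 1 in cycling cells. The list took 0.340% to 0.572% of reads in cycling captures and 1.49% to 2.55% in non-cycling captures. The list includes Btg1 and Btg2, antiproliferative proteins that join mRNA deadenylation. Btg1 had 154, 1138 and 1634 CPM in the lowest, median and highest cycling captures and 6002, 9432 and 16023 CPM in non-cycling cells (log2 fold change -4.23 ± 0.61, SE, adjusted p = 8.96e-07). Btg2 had 22.3, 365 and 1081 CPM against 2043, 4561 and 8157 (-4.69 ± 0.90, SE). Neither gene overlapped between the classes, and both stayed called without each capture.

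Cyclin-dependent kinase inhibitors gave no such separation. Cdkn1b, which encodes p27, had medians of 31.2 CPM in cycling and 165 in non-cycling cells (adjusted p = 0.346), and Cdkn1a, which encodes p21, had 16.7 and 0.122 CPM (adjusted p = 0.408). Trp53, which encodes p53, was the member higher in cycling cells, with a median of 164 against 0.417 CPM (7.85 ± 2.40, SE). It had no reads in the cycling cells of capture 38 and lost its call without any of 5 captures. Trp53inp1, a p53-induced protein, went the other way, with a median of 1.01 CPM in cycling and 681 in non-cycling cells (-8.98 ± 1.63, SE). It had 10 or more reads in 8 of 48 cycling and 18 of 81 non-cycling cells, so few cells carry its level.

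Other genes led the non-cycling side. Fth1, the ferritin heavy chain that stores iron, had 374, 711 and 1181 CPM in cycling cells and 4902, 6103 and 13222 in non-cycling cells, with no overlap (-4.04 ± 0.65, SE, adjusted p = 9.93e-06). Ccl6, a chemokine, had 0.714 to 266 CPM against 1028 to 3893. Ccr1, a chemokine receptor, had 0.143 to 314 CPM against 423 to 3310. Clec4e, a pattern receptor also called Mincle, had 22.8 to 157 CPM against 701 to 1766. The classes did not overlap for any of the 4. Dhrs9, a dehydrogenase of the short-chain family, had at most 3.14 CPM in cycling cells and 140 to 785 in non-cycling cells. Bst1 and Rbm47, a surface enzyme and an RNA-binding protein, had medians of 1.50 and 0.750 CPM in cycling cells and 246 and 456 in non-cycling cells.

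**Figure D4:**
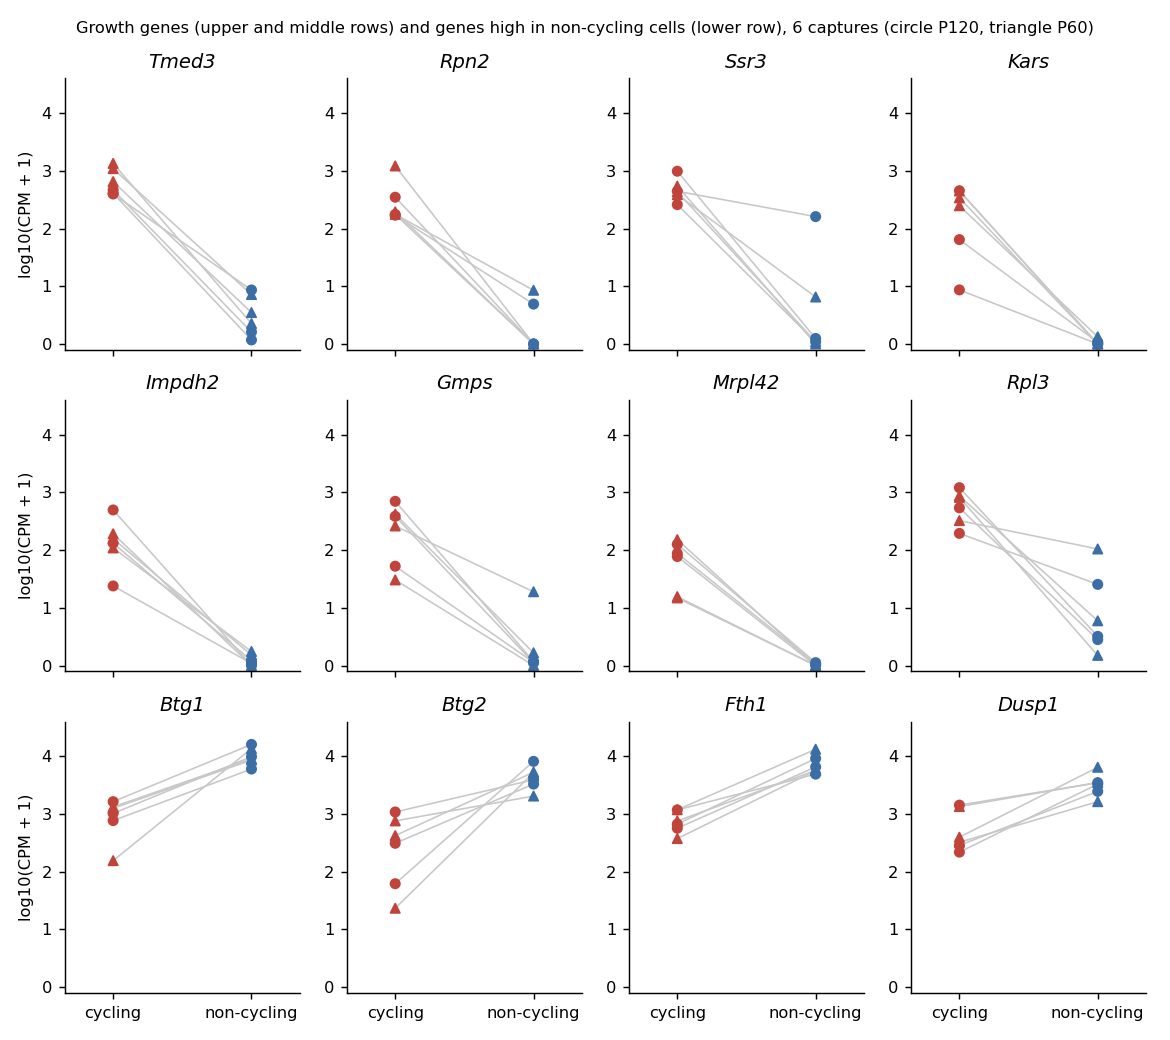
Levels of 8 genes of protein and nucleotide synthesis (upper and middle rows) and 4 genes high in non-cycling cells (lower row), as log10(CPM + 1) in the 6 captures, with red for cycling and blue for non-cycling cells. Most growth genes are close to 0 in non-cycling cells, and Btg1, Btg2, Fth1 and Dusp1 rise along every line.

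Few members of each list of growth genes passed the test. Their shares are read against the 6.98% of all genes tested that were higher in cycling cells, and against 5.07% (244 of 4815) outside the cycle lists. Translation factors (4.65%) lay under both. The proteasome (8.11%), chaperones (8.57%) and nuclear genes of the respiratory chain (9.33%) lay above both, with 3, 3 and 7 genes called. The lists were not tested against these shares. The filter on low values could be passed through the cycling cells alone, so these counts are a description. Without the cells carrying basophil or mast cell markers 5 captures were left, and of all the lists of this kind described here, from the secretory pathway to the TCA cycle, 1 chaperone gene (Cct5) and 1 nuclear gene of the respiratory chain were called. The part of those cells, and of the fewer captures, was not tested. In the secretory pathway 6 of 53 tested members were higher and 0 lower, with a median log2 fold change of 4.43. Rpn2, a subunit of the oligosaccharyltransferase, had 169, 184 and 1211 CPM in cycling cells and 0, 0 and 7.50 CPM in non-cycling cells (log2 fold change 10.92 ± 2.95, SE), and lost the call without capture 31. Ssr3, of the translocon-associated complex, had 258 to 982 CPM against 0 to 160. The others were Ddost, Sec11a, Dnajb11 and Sdf2l1. Centred on the median of all genes, 2 of the 53 stayed higher. Tmed3, a cargo receptor between the endoplasmic reticulum and the Golgi that stood on no list, had 395, 556 and 1341 CPM against 0.174, 1.87 and 7.6 (7.94 ± 1.84, SE, adjusted p = 0.00453).

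For ribosome biogenesis 5 of 26 tested members were higher (median 5.56), for aminoacyl-tRNA synthetases 2 of 10 (median 5.36) and for translation factors 2 of 43 (median 3.43), with 0 lower in each. Centred on the median of all genes, these counts were 0, 2 and 0, and 1 translation factor was then lower. Kars, which charges lysine tRNA, had 7.64, 293 and 451 CPM in cycling cells and at most 0.330 in non-cycling cells. Eif3l, an initiation factor subunit, had 36.8 to 541 CPM against 0 to 38.1. The 5 biogenesis genes, Nop56, Gnl2, Ebna1bp2, Heatr1 and Pwp1, all had adjusted p values between 0.0363 and 0.0466, and each lost its call without at least 5 of the 6 captures. Ribosomal proteins took 3.36% of reads in the median cycling capture and 0.759% in the median non-cycling capture, higher in 6 of 6, yet 1 of 78 genes, Rpl3, was called and the median change of 2.07 lay near that of all genes.

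Nucleotide synthesis had 5 of 19 members higher and 0 lower (median 5.87), and 3 were higher after centring. Gmps, which makes GMP, had 29.4 to 699 CPM against 0 to 18, and Impdh2, the step before it, had 22.9 to 495 CPM against 0 to 0.750. Pfas, of purine synthesis, and Mthfd2, of mitochondrial folate metabolism, were the others outside the cycle lists. With 3 reads of Mthfd2 in the non-cycling cells of the 6 captures, the ratio of summed shares was 782, with a counting interval of 267 to 3797. That interval takes amplified reads as independent and leaves out the spread between captures. Tyms, the fifth, is also a member of the S phase list.

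RNA processing and transport gave 7 of 66 splicing genes and 4 of 23 nuclear pore genes higher in cycling cells, and 0 lower in both. Centred, 1 of each was higher. Sf3a3, a U2 snRNP protein, had 8.31 to 161 CPM in cycling cells and 0 reads in the non-cycling cells of the 6 captures. It was at least 1617-fold higher against a floor of 3 reads over that group, but it had 10 or more reads in 18 of 48 cycling cells and passed the filter on low values through those cells alone. Among chaperones 3 of 35 were higher, and all 3 (Cct4, Cct5 and Cct6a) belong to the chaperonin that folds actin and tubulin. For the proteasome the count was 3 of 37. Centred, 0 chaperones and 1 proteasome gene were higher.

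Mitochondrial genes showed 8 of 40 mitochondrial ribosome genes, 7 of 75 nuclear genes of the respiratory chain and 2 of 16 genes of the TCA cycle higher in cycling cells, with 0 lower in each, and 4, 2 and 0 of these were higher after centring. Mrpl42 had 13.8 to 151 CPM against at most 0.122, and Cox6b2, a subunit of cytochrome oxidase, 22.5 to 81.7 against at most 0.0697. Genes of the mitochondrial genome gave 0 calls of 10 tested. They took a median of 1.26% of the reads of a cycling cell and 0.0255% of a non-cycling cell, with per-cell values from 0.133% to 9.61% and from 0.00021% to 18%. For glycolysis 0 of 20 members were higher and Pfkfb4 was lower in cycling cells (0.893 to 116 CPM against 134 to 1039).

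Antioxidant genes had 3 of 24 higher (12.5%, against 6.98% of all genes tested). Catalase (Cat) had 45.2, 163 and 690 CPM in cycling cells and at most 0.5 in non-cycling cells, and the other members were Glrx3 and Gstm1. Lysosome genes gave 0 of 33 in either direction, and the NADPH oxidase gave 0 of 8. Actin and motility genes were lower in cycling cells in 4 of 47 (8.51%, against 1.87% of all genes tested) and higher in 0 (median -0.94). Actb was high in both classes, at a median of 19145 CPM in cycling and 32696 in non-cycling cells (-1.49 ± 0.27, SE), and in 1 of 6 captures the level was higher in cycling cells.

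**Figure D5:**
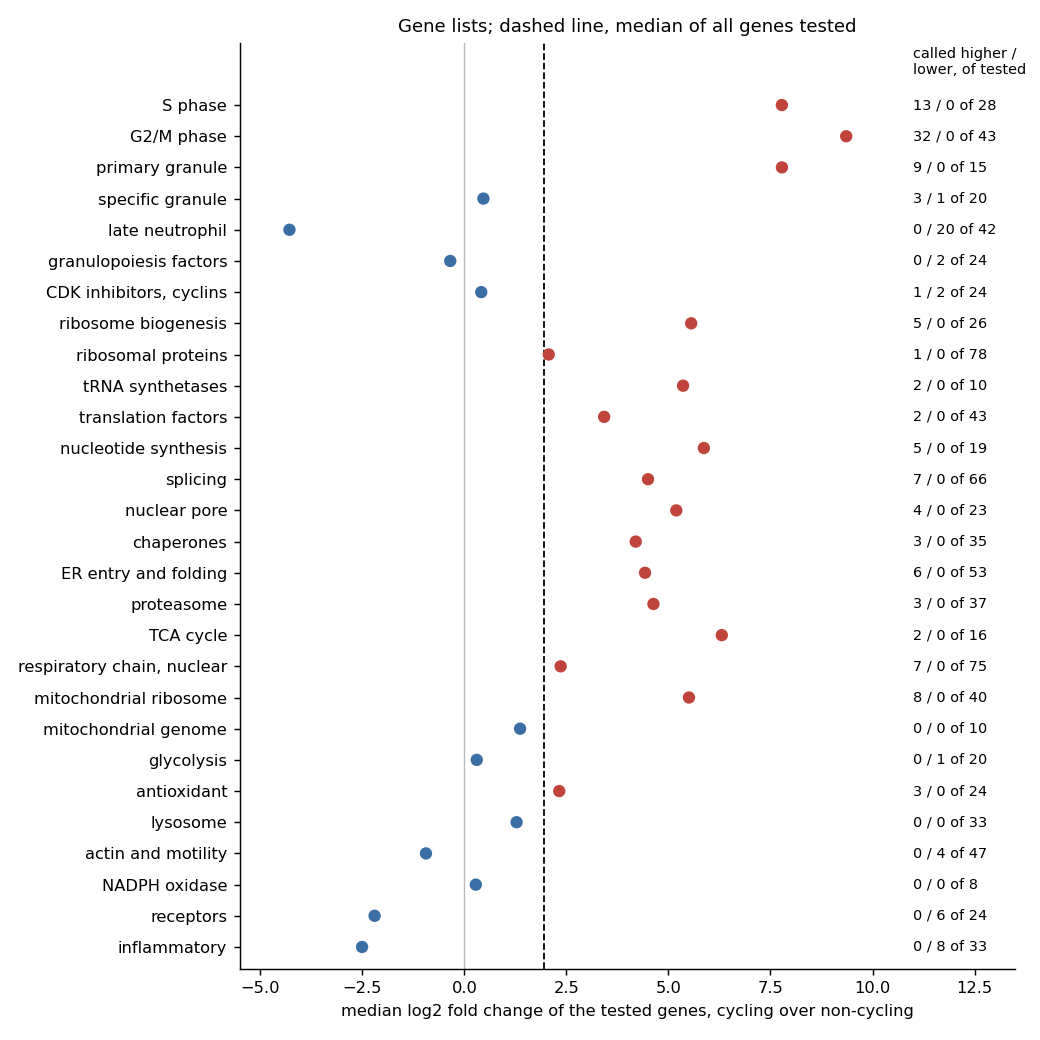
Median log2 fold change (cycling over non-cycling, x axis) of the tested members of 28 gene lists, with the number called higher and lower in cycling cells at the right. Red points lie above and blue points below the dashed line, the median of 1.96 over all genes tested; primary granule and cycle lists stand furthest right and late neutrophil, inflammatory and receptor lists furthest left.

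Genes with the smallest p outside the lists included Pclaf and Hist1h2ao. Pclaf, a PCNA-associated factor of DNA replication, had 90.2 to 334 CPM in cycling cells and 1 read in the non-cycling cells of the 6 captures. Pclaf stood on no cycle list, but the rule genes also mark DNA replication, so its call is not independent of the rule. Hist1h2ao is 1 of many near-identical histone genes, and Gm13092 and Gm4366 are processed pseudogenes, so their reads may belong to related copies. Cacybp, a calcyclin-binding protein, had 0 reads in the non-cycling cells of the 6 captures and was at least 2888-fold higher in cycling cells. It had 10 or more reads in 23 of 48 cycling cells and passed the filter on low values through those cells alone, as Sf3a3 did. Cnih1, another cargo receptor of the secretory pathway, had 20.4 to 300 CPM against at most 0.125. Gm13092, with 0 reads in the non-cycling cells of the 6 captures, also passed the filter through cycling cells alone. Gm4366, Pclaf and Cnih1, with 1 read each there, and Cat and Kars, with 7 and 8, passed it mainly through cycling cells. The calls of these genes carry the same limit. Of all 126 named genes past the threshold, 53 stayed past it without each capture in turn.

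Markers of another lineage were more common in some cycling captures. Basophil or mast cell genes were positive in 15 of 48 cycling cells, 12 of 35 cells of neither class and 4 of 81 non-cycling cells. Their summed share of reads was 0.0130%, 0.444% and 5.76% at the lowest, median and highest of the cycling captures and 0.00323%, 0.162% and 0.396% in non-cycling captures. It was higher in the cycling cells of 4 captures and in the non-cycling cells of 2, and captures 31 and 40 held 0 marker-positive cycling cells. Cma1 had 0 reads in cycling cells and Tpsb2 had 0 in non-cycling cells. Mcpt8, a basophil protease, had 0.143 to 14703 CPM against 0.0944 to 5.99 and was called higher (5.95 ± 1.76, SE, adjusted p = 0.0220), 1 of 3 tested genes of its list. The call was lost without capture 28, 32 or 9c (adjusted p = 0.104, 0.245 and 0.123). The others on the list were Prss34 (4.67, adjusted p = 0.0956) and Hdc, a histidine decarboxylase also on the primary granule list, which had -2.90 ± 1.09 (SE, adjusted p = 0.0771) and was higher in non-cycling cells in 5 of 6 captures. Of the 15 cells, 12 were also positive for primary granule genes and 12 for specific granule genes. Without marker-positive cells of any of 4 other types (basophil or mast cell, B lymphoid, erythroid and SC), 4 captures were left and 7 genes were called, all lower in cycling cells. The same 4 captures with all their cells gave 38 calls. The 7 included Retnlg (-6.82), Mmp8 (-7.56), Btg1 (-5.18) and Btg2 (-7.38), and Mpo had 4.09 there with an adjusted p of 0.794.

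Among cells without primary granule genes, 4 captures gave 9 calls of 3313 genes, with 7 higher and 2 lower in cycling cells, and 4 of the 7 were cell cycle genes. Among cells positive for specific granule genes, 129 of 4879 genes were called, 92 higher and 37 lower in cycling cells, with late genes lower in 9 of 42 and primary granule genes higher in 2 of 15.

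The class difference was then compared between the ages. No gene of 5014 had a class difference that differed between P60 and P120 at the threshold (edgeR, 0 called and 129 with an unadjusted p under 0.05), whereas DESeq2 called 527. Cycling cells made up 20.9% ± 21.6 (SD, n = 6 captures) of the cells at P60 and 23.2% ± 18.9 (SD, n = 4) at P120, a difference of 2.30 percentage points (exact permutation p = 0.867). Shares per capture ran from 0% to 50% at P60 and from 0% to 45.2% at P120, and the difference turned to -10.1 points among captures of the later runs, to -5.03 without capture 28 and to -1.88 without capture 20c or 21c.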

How the data were processed

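Single-cell libraries were made with full-length cDNA and no molecular identifiers, so intervals cover counting error only. The counts are reads per gene and cell that the authors aligned with STAR v2.5 to GRCm38 (mm10) with the GENCODE vM11 annotation plus EGFP and deposited without normalization, after removing endothelial cells and outliers. The GFP score was deposited by the authors from images of the capture sites, with a scaling not given in the sources used here. The deposited table held 48709 genes and 92 spike-ins, of which the spike-ins were dropped, and 48349 gene IDs matched a name. Cells of the classes compared had 64947 to 5361480 reads on genes. Doublets were excluded by the authors through scatter at the sort, and no doublet caller was run.

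The class rule, its genes and all gene lists were chosen with earlier results of these data known, and some lists share members. Counts were summed per capture and class over captures with at least 2 cells of each class. Genes passing filterByExpr, with a mean share of cells with a read of at least 20%, were tested with edgeR 4.0.16 (R 4.3.3; TMM, glmQLFit, glmQLFTest, Benjamini-Hochberg adjustment), with the capture as a block. The 5 rule genes were not tested. Cells of both classes in a capture came from the same pool of animals, so the capture pairs them, and the class rule asked for this block. Whether captures are separate animals beyond the pool is not stated for each, so p-values measure the spread between captures. Shares and medians were compared by exact two-sided sign-flip permutation over captures (scipy 1.17.1). Shares of single classes have Clopper-Pearson 95% intervals.

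Genes named were, per direction, up to 15 called genes of smallest p with that direction in every capture, all members of the primary granule, specific granule, granulopoiesis factor and CDK inhibitor lists, and of each other list the 4 members of highest mean CPM and those called. Genes of marker checks are also named. Promoters came from RefSeq, GRCm38.p6, in which 262 of 331 named genes had an entry. Alternatives were DESeq2 1.42.0, limma 3.58.1, other scalings, filters, blocks, depths, class rules and cell subsets. Those on basophil or SC marker cells, on specific granule positive cells, on centring and on the 4 captures with all cells were chosen after seeing the data.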

Additional observations from a re-analysis of the deposited data

Results flagged for a closer look

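In 38 sets of 6 capture values, 5 had a capture far from the others by Dixon's criterion at 95%, where chance gives about 1 in 20. The log2(CPM + 1) difference between cycling and non-cycling cells was 1.06 for Mpo in capture 40, 6.34 for Pclaf in capture 40, 4.42 for Cnih1 in capture 31, 4.40 for Cep57l1 in capture 9c and -6.45 for Btg1 in capture 31. Cyba, a subunit of the NADPH oxidase, moved one way in every P60 capture and the other way in every P120 capture, with an interaction log2 fold change of -1.72. It was 1 of 278 genes checked, and the interaction was not called by edgeR. Among the 35 cells of neither class, 45.7% were positive for primary granule genes. The approximate upper limit for a count of 0 used for this flag was 8.57%, and the exact limit is 10.0%. Among the 47 cells under the read minimum, 17.02% were positive for late neutrophil genes, where the approximate limit was 6.38%.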

How the results depend on the processing

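The number of genes called, 444, was 67 with no filter, 688 by total reads, 2655 with DESeq2, 2913 with limma, 223 with cells thinned to one depth, 238 with classes set on thinned cells and 288 with captures of 1 cell of each class. By cells, it was 7 without other cell types, 38 in the same 4 captures with all cells, 9 among primary granule negative cells, 129 among specific granule positive cells and 75 without basophil markers. Leaving out captures gave 208 to 375. Without the replicate block it was 286, and with a replicate block of capture and run, where some blocks held 1 cell of a class, it was 0. The fit on primary granule positive cells was not run, since fewer than 2 captures held enough of them. DESeq2 called 527 genes for the interaction with age, where edgeR called 0.

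The differences in genes detected and in primary granule and late positive cells kept their direction. Without single captures, the difference in genes detected was 1444.5 to 1678, in primary granule positive cells 48.3 to 57.96 points and in late positive cells -51.5 to -40.9 points, and 5 captures cannot reach p of 0.05. GFP differed by -161 with classes set on thinned cells. The exact sign-flip permutation p was then 0.03125, the smallest that 6 captures allow, and it was not adjusted over the 7 tests. The difference in the cycling share between the ages was -10.1 among captures of the later runs, and without single captures it ranged from -5.03 to 10.0, with -1.88 without 20c or 21c.

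With limma, log2 fold changes turned positive for Anxa1 (1.81), Fli1 (2.65), Ccnl1 (1.97), Ccni (1.86), Tpt1 (1.98), Ptges3 (4.22), Aldoa (2.21), Gapdh (2.39), Hnrnpk (4.68), Sf3b1 (2.29), Hnrnpc (4.07), Rac2 (2.13), Cyba (1.98), Cd63 (3.399), Prdx5 (2.16), Psmb9 (1.55) and mt-Nd4 (4.30). Gstm1 was -1.34 among primary granule negative cells, Mcpt8 was -1.35 without other cell types and -1.79 without basophil markers (cells chosen by a list that holds Mcpt8), and Psmb5 was -0.36 with classes set on thinned cells. The cause was not tested.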
